A study of Arabidopsis thaliana with 12 samples.

Results

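The comparison set the upper stem of arf6 arf8 double mutant Arabidopsis against that of wild-type Columbia, with 1 array a side, and used the stem of plants that keep 1 working copy of the gene pair as a check. Probe sets were ranked by the log2 ratio of (signal + 50), arf6 arf8 over Columbia, where the brighter of the 2 arrays reached a signal of 200, and a ratio of at least 2 either way was called past the fold. Of 22746 probe sets that are not controls, 12652 reached that signal, and 107 of these were set aside because their signal in Columbia flowers of stages 1-10 was over 5 times that in Columbia stem. Among the 12545 that remained, 422 were higher and 245 were lower in arf6 arf8 stem, which is 3.36% and 1.95% of them (667 or 5.32% in either direction).

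The series held 12 arrays, from 3 genotypes and 4 tissues (stem and flowers of stages 1-10, 11-12 and 13-14), with 1 array for each genotype and tissue. The 3 stem samples were about 0.5 cm of stem taken directly under the inflorescence of untreated plants grown for 6 weeks in long days. Columbia is the wild-type accession, and arf6 arf8 plants carry mutations in both AUXIN RESPONSE FACTOR genes. The titles write the third genotype as arf6/arf6 ARF8/arf8 and the design text writes it as ARF6/arf6 arf8/arf8, so these plants are called single-copy plants here. Which alleles were used, how many plants went into a sample and whether stem and flowers came from the same plants are not given in the sources used here. With 1 array per group there is no spread between replicates, and the ratio of a pair of arrays has no test of its own. The values are array signals of whole stem pieces, in which fewer cells of a type and less RNA per cell cannot be told apart.

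Auxin response factors are DNA-binding proteins that switch target genes on or off at promoters with auxin response elements, and Aux/IAA proteins hold them back until auxin triggers the removal of those proteins. ARF6 and ARF8 are closely related activators with overlapping roles, and plants without both have short inflorescence stems and flowers that stop before opening. Stem elongation rests on wall-loosening proteins, among them expansins and the XTH enzymes, which cut and rejoin xyloglucan. Probe sets could be named where the annotation used here pairs them with exactly 1 gene, which held for 6788 of the 12652, and the rest are counted without names. ARF6 and ARF8 themselves are not among the named probe sets, so their levels were not analysed here.

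The scale of the 3 stem arrays was compared first. Their median signals were 218.7 for Columbia, 220.2 for single-copy and 227.8 for arf6 arf8, and the 3' to 5' signal ratio of the GAPDH control probe sets was 1.08, 1.14 and 0.922. The same ratio of the actin control probe sets was 5.11, 5.28 and 6.26, highest in arf6 arf8, where that of GAPDH was lowest. Pearson's r over all probe sets was 0.961 between arf6 arf8 and Columbia, 0.979 between single-copy and Columbia and 0.978 between arf6 arf8 and single-copy. Of the fixed markers of stem vascular tissue only IRX10, a xylan synthesis gene, was named, at 416 in Columbia, 384 in single-copy and 359.7 in arf6 arf8. CLV3, a marker of the shoot meristem, was at 9.6, 6.6 and 9.1, near the bottom of the scale on each. Of the bud markers 2 of 18 were named, and both were brightest on the Columbia array. A9, a gene of the anther tapetum, read 176 in Columbia stem, 31.7 in single-copy stem and 5.6 in arf6 arf8 stem, against 3558 in Columbia flowers of stages 1-10. AMS, a regulator of the same tissue, read 71.1, 27.9 and 28.6. The transcripts set aside are described with these values further on.

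**Figure D1:**
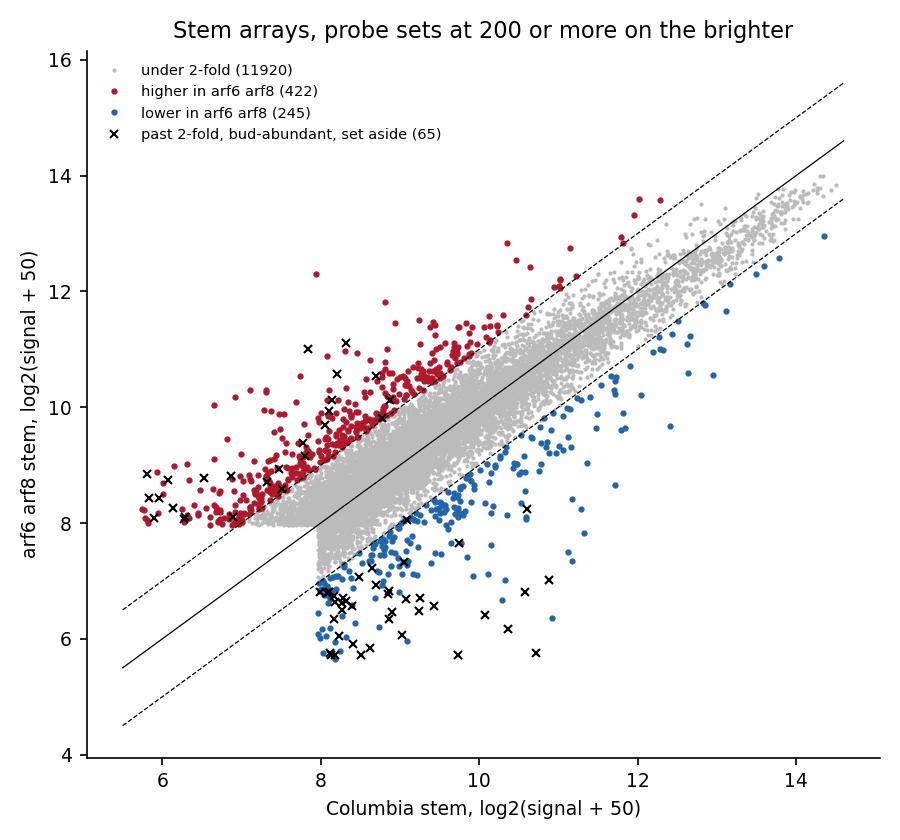
Stem signal of each probe set on the Columbia array (x axis) and on the arf6 arf8 array (y axis), both as log2(signal + 50), for probe sets at 200 or more on the brighter array. The solid line is equality and the dashed lines are 2-fold. The 422 red points and 245 blue points are past the fold, and the 65 crosses are bud-abundant transcripts past the fold that were set aside.

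Before any transcript was set aside, 447 probe sets (3.53% of 12652) were higher and 285 (2.25%) were lower in arf6 arf8 stem, 732 (5.79%) in all. The median log2 ratio over all 12652 was 0.04, and 5782 of them (45.7%) were below 0. A ratio of 4-fold or more was reached by 46 higher and 39 lower probe sets among those kept, and 8-fold or more by 5 higher and 9 lower. Of the kept ones, 202 higher and 127 lower probe sets could be named. The 6 just inside the threshold lay between log2 ratios of 1.00 and 1.02 on the higher side, starting at AT1G06640, and the 6 just outside between 0.99 and 1.00. On the lower side the 6 just inside lay between -1.01 and -1.001, starting at AT5G46580, and the 6 just outside between -0.996 and -0.97. There was thus no gap in the ratios at the threshold. Of the 4 loci past the fold that had more than 1 probe set at sufficient signal, 3 had all of them past the fold the same way and none had them with opposite signs.

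An expansin, a xyloglucan-modifying enzyme gene and a plantacyanin stood among the 14 lowest named genes. EXPA8, the expansin, read 1055 in Columbia stem, 411 in single-copy stem and 89.6 in arf6 arf8 stem, a log2 ratio of -2.98 for arf6 arf8 over Columbia. XTH19, the xyloglucan enzyme gene, read 211, 45.8 and 3.8, a log2 ratio of -2.28. For both, the single-copy plants lay between the other genotypes and Columbia was highest. In Columbia, EXPA8 was 6.39 times as bright in flowers of stages 11-12 as in stem, and XTH19 11.5 times at stages 13-14. The setting aside, which used stages 1-10 alone, kept both. ARPN, which encodes plantacyanin, a small copper protein of the cell wall space, read 2247 in Columbia, 1941 in single-copy and 292 in arf6 arf8 (log2 ratio -2.75), so the single-copy array stayed near Columbia.

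The lowest ratio of all kept named genes was that of AT1G72110, with 1195 in Columbia, 983 in single-copy and 52.3 in arf6 arf8 (log2 ratio -3.61). AT5G47550 followed, with 2515, 1101 and 176 (-3.51), and AT5G51950 was bright in Columbia at 3303, with 2039.9 in single-copy and 355 in arf6 arf8 (-3.05). AT3G28270 read 923, 665 and 85.9 (-2.84). In these 4, which the annotation names by locus alone, arf6 arf8 was past 2-fold below both other stem arrays. AT5G12110 (377, 401 and 23.8, log2 ratio -2.53) was the 1 gene of the 14 in which single-copy stem was not between the other 2 arrays. The remaining genes of the 14 were AT3G50900 (-3.12), AT5G62360 (-2.53), AT5G50335 (-2.53), AT5G48900 (-2.48), AT3G46490 (-2.28) and AT1G12080 (-2.22). Over the 14, single-copy stem was between the other arrays in 13, and arf6 arf8 was 2-fold below both in 9. Over all kept probe sets these shares were 48.1% and 0.67%. The choice of the most extreme ratios favours both counts, so they are a description and no support.

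Among the 14 highest named genes were a thionin, an expansin-like gene, a flavin monooxygenase and a pyruvate, phosphate dikinase. THI2.2, a thionin, one of a class of small defence proteins, read 399 in Columbia stem, 1299 in single-copy stem and 3577 in arf6 arf8 stem, a log2 ratio of 3.01. EXLB1, a member of the expansin superfamily, read 109, 497 and 1201, a log2 ratio of 2.98. Its direction was opposite to that of EXPA8 on each array pair of the stem. FMO read 157, 346 and 1038 (2.39), and PPDK, which interconverts pyruvate and phosphoenolpyruvate, read 136, 243 and 895 (2.34).

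The highest ratio belonged to AT1G33790, at 51.0 in Columbia, 162 in single-copy and 999.5 in arf6 arf8 (log2 ratio 3.38). AT3G02910 came next, at 88.3, 449 and 1207 (3.18). AT3G53980 read 1250.5, 4433 and 7299.6 (2.50). In each of the 3 the single-copy plants were above Columbia and below arf6 arf8. AT5G49770 was the most uneven, with 3.8 in Columbia, 5.1 in single-copy and 253 in arf6 arf8 (2.50), and AT1G76960 was similar at 5.2, 10.0 and 223 (2.30). For these, the ratio of (signal + 50) is a compressed measure because Columbia was near the bottom of the scale. The others were AT3G16530 (2.67), AT1G27030 (2.63), AT5G44580 (2.48), AT3G55920 (2.46) and AT3G16330 (2.39). In all 14 the single-copy array was between the other stem arrays, a position that the choice of the most extreme ratios largely fixes. In 11 arf6 arf8 was 2-fold above both, a count that the same choice favours.

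**Figure D2:**
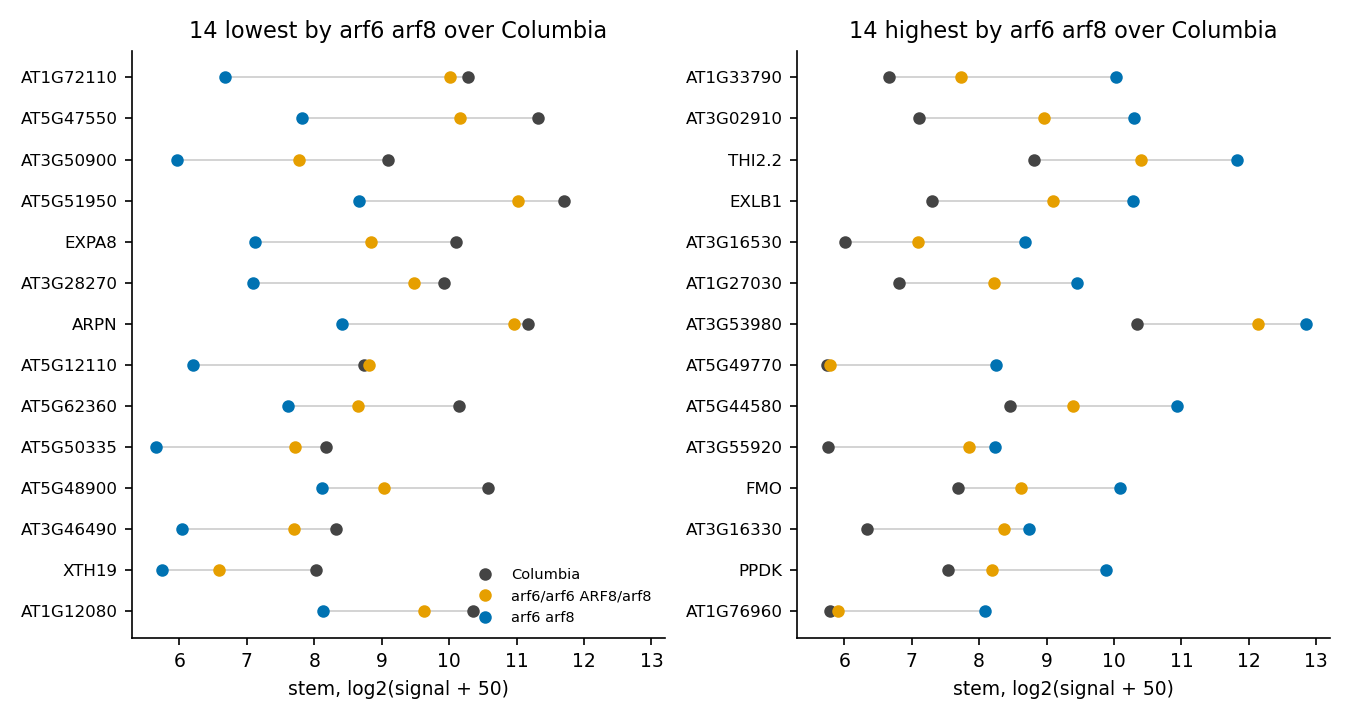
Stem signals, as log2(signal + 50) on the x axis, of the 14 lowest (left) and 14 highest (right) named genes by arf6 arf8 over Columbia, with 1 point for each of the 3 stem arrays. Single-copy stem (orange) lies between Columbia (black) and arf6 arf8 (blue) in 13 of the 14 lowest and all 14 highest. The choice of the most extreme ratios largely fixes that position.

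The single-copy array was the check on these differences. Against Columbia stem, 166 of 12352 probe sets at sufficient signal were past the fold in single-copy stem (1.34%), 77 higher (0.623%) and 89 lower (0.721%). Against single-copy stem, arf6 arf8 stem had 269 of 12427 past the fold (2.16%), 165 higher (1.33%) and 104 lower (0.837%). The SD of the log2 ratio was taken over the probe sets at sufficient signal in each pair. It was 0.35 for single-copy over Columbia (12352), 0.54 for arf6 arf8 over Columbia (12652) and 0.39 for arf6 arf8 over single-copy (12427). The 3 comparisons share arrays, so their values are given side by side with no test of their overlap.

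Single-copy stem lay between Columbia and arf6 arf8 for 389 of the 422 higher probe sets and for 229 of the 245 lower ones, which is 92.2% and 93.5%, against 48.1% of all 12545. These shares follow largely from the choice of members, because any further array with no genotype effect would also lie mostly inside a gap of 2-fold or more, so they are a description and no support. Its median log2 ratio to Columbia was 0.61 for the higher set, in which arf6 arf8 had a median of 1.28, and -0.56 for the lower set, in which arf6 arf8 had -1.34. As a share of the log2 distance from Columbia to arf6 arf8, the single-copy value had a median of 0.46 for the higher set, with quartiles of 0.28 and 0.59, and of 0.39 for the lower set, with quartiles of 0.22 and 0.58. It was nearer to Columbia than to arf6 arf8 in 239 of the 422 and in 162 of the 245. In 116 of the 422 (0.925% of the 12545 kept) arf6 arf8 was 2-fold above both other stem arrays, and in 84 of the 245 (0.67%) it was 2-fold below both. LUP5 and MSRB5, chosen after their values were seen, show both kinds of pattern. LUP5, a gene of the lupeol synthase family, read 296 in Columbia, 277 in single-copy and 27.4 in arf6 arf8 (log2 ratio -2.16), so only the double mutant was low. MSRB5, a methionine sulfoxide reductase gene, read 243, 855 and 903 (1.70), so the single-copy plants were already at the level of the double mutant.

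Of the 107 transcripts set aside, 65 (60.7%) were past the fold in arf6 arf8 stem, 40 lower (37.4%) and 25 higher (23.4%), and the median log2 ratio of the 107 was -0.41. Young flower buds grow directly above the piece of stem that was sampled. In the 40 lower ones the Columbia stem signal was a median of 7.18% of the signal in Columbia flowers of stages 1-10, with a range of 3.55% to 19.0%. Their medians were 358 in Columbia stem, 95.7 in single-copy stem and 49.0 in arf6 arf8 stem. In 36 of the 40 both mutant arrays were under 50% of Columbia. The choice of the 40 by a low arf6 arf8 ratio largely fixes the arf6 arf8 side of these values. Single-copy stem was nearer to arf6 arf8 than to Columbia in 36 of the 40, against 83 of the 245 lower probe sets that were kept. A wider set of 394 was not chosen by the arf6 arf8 ratio. Its members had 200 or more in Columbia flowers of stages 1-10, over 5 times Columbia stem. Both mutant stems were under 50% of Columbia in 116 of the 394. Their summed signals were 61358 in Columbia, 37650 in single-copy and 44883 in arf6 arf8 stem.

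The lowest of the set-aside genes was AT1G68875, with 1627 in Columbia stem, 4.5 in single-copy stem and 3.8 in arf6 arf8 stem, and 10243 in Columbia flowers of stages 1-10 (log2 ratio in stem -4.96). ATA27, named for its anther expression, read 802, 59.0 and 2.6 in the stems and 10042 in those flowers (-4.02). AT1G66850 (-3.78), RXF26 (-2.86), AT2G03740 (-2.78) and AT1G47980 (-2.49) completed the 6 lowest. In all 6 Columbia stem was the brightest stem. The 2 named bud markers were also brightest in Columbia stem. Their summed signal was 247 in Columbia stem, 59.6 in single-copy stem and 34.2 in arf6 arf8 stem. In single-copy and arf6 arf8 stem A9 read 31.7 and 5.6, and AMS 27.9 and 28.6. These values are all under 50, too dim for a reliable order of the mutant stems. The part that buds in the Columbia stem sample had in these differences was not tested.

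In the 25 higher ones the medians rose instead, at 128 in Columbia, 196 in single-copy and 413 in arf6 arf8 stem. The order of Columbia and arf6 arf8 follows from the choice of members. SWEET10, a sugar transporter gene, read 179 in Columbia stem, 1271 in single-copy stem and 1993 in arf6 arf8 stem (log2 ratio 3.15), with 1641 in Columbia flowers of stages 1-10. It was therefore as bright in the mutant stem as in young wild-type flowers. AT1G62500 read 268, 409 and 2149.8 (2.79). The other 4 of the 6 highest were AT3G45680 (2.26), AT4G00870 (2.19), AT3G11930 (1.98) and AT3G28840 (1.95).

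The lower and higher probe sets were also set against where the plants express them. Columbia stem was over 2 times as bright as the brightest Columbia flower array in 27 of the 245 lower probe sets (11.0%), in 9 of the 422 higher ones (2.13%) and in 287 of all 12545 (2.29%). Because Columbia stem also chose the members, the same count was made with the single-copy arrays, where it was 14 of 245 (5.71%), 37 of 422 (8.77%) and 287 of 12545 (2.29%). The order of the lower and higher sets thus turned with the genotype used, and both lay above the share of all probe sets in single-copy plants. At least 1 Columbia flower stage was over 5 times as bright as Columbia stem in 43 of the 422 higher, 13 of the 245 lower and 195 of all 12545 kept probe sets, a count that again uses the Columbia stem value by which members were chosen.

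The flower arrays gave the same pair of genotypes in tissues that did not enter the stem ratio. The Columbia array of stages 1-10 did decide which probe sets were set aside, so the values at that stage are not free of the rule. There, arf6 arf8 and Columbia differed by 2-fold at 362 of 12680 probe sets at stages 1-10 (2.85%), at 1326 of 12743 at stages 11-12 (10.4%) and at 1914 of 12961 at stages 13-14 (14.8%). By direction, 1.48%, 4.95% and 7.26% were higher and 1.37%, 5.45% and 7.51% were lower in arf6 arf8. Of the lower stem probe sets at a signal of 200 or more in the flower pair, 154 of 199 (77.4%) were below 0 at stages 1-10, 181 of 207 (87.4%) at stages 11-12 and 180 of 211 (85.3%) at stages 13-14. Over all kept probe sets the shares below 0 were 48.5%, 43.1% and 39.4%. Of the higher ones, 234 of 310 (75.5%), 279 of 322 (86.6%) and 289 of 342 (84.5%) were above 0, where the shares of all kept probe sets were 51.5%, 56.9% and 60.5%. Among the set-aside probe sets past the fold, the shares with the sign of the stem ratio at stages 1-10 were 92.5% for the lower and 63.6% for the higher. Most stem differences thus had the same sign in flowers of each stage.

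The size in flowers was smallest in the youngest buds. The lower set had median log2 ratios of -0.39, -1.05 and -1.04 at stages 1-10, 11-12 and 13-14, and the higher set had 0.33, 0.82 and 0.72, beside 0.01, 0.09 and 0.15 over all kept probe sets. A 2-fold difference in the same direction was seen at stages 11-12 in 107 of 207 lower probe sets (51.7%) and in 128 of 322 higher ones (39.8%), against 3.32% and 4.18% of all. At stages 1-10 these were 33 of 199 (16.6%) and 42 of 310 (13.5%), against 0.63% and 0.69%. A 2-fold difference the other way was seen in 2, 0 and 5 of the lower and in 4, 6 and 12 of the higher probe sets at the 3 stages. Counted over all 3 stages without the signal limit, 152 of the 245 and 222 of the 422 kept the sign of the stem ratio, 22 and 19 were also past 2-fold at each stage, and 46 and 87 stayed within 1.5-fold at each.

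**Figure D3:**
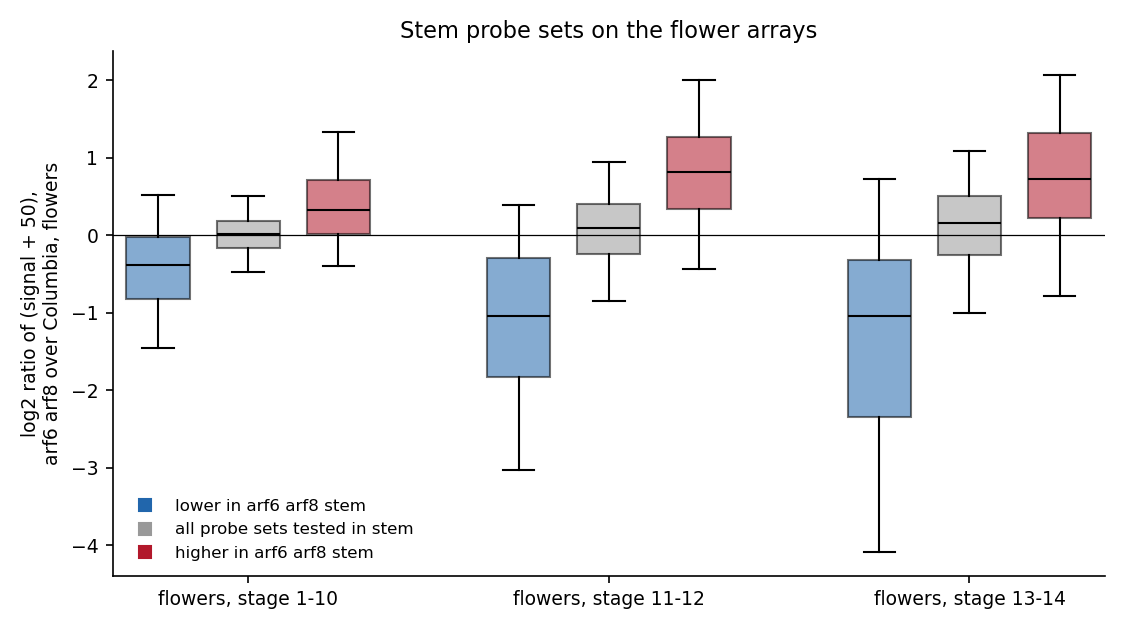
Log2 ratio of (signal + 50), arf6 arf8 over Columbia, in flowers of 3 stages (y axis) for the probe sets lower (blue) or higher (red) in arf6 arf8 stem and for all kept probe sets (grey), where the flower pair reached 200. Boxes span the quartiles, the line is the median and whiskers reach the 5th and 95th percentiles. The blue medians are -0.39, -1.05 and -1.04 and the red ones 0.33, 0.82 and 0.72.

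Single genes followed the stem into the flower to different degrees. EXPA8 read 1860.0 in Columbia and 811 in arf6 arf8 at stages 1-10, 6739 and 607 at stages 11-12, and 6398 and 263 at stages 13-14, which are log2 ratios of -1.15, -3.37 and -4.36. EXLB1 read 89.8 and 686, 73.5 and 936, and 119.8 and 679, ratios of 2.40, 2.996 and 2.10. These expansin superfamily genes thus kept their opposite directions in each of the 4 tissues. XTH19 was bright in wild-type flowers only late, at 46.7, 342 and 2428 in Columbia, where arf6 arf8 read 19.3, 39.3 and 24.1. FMO was higher in arf6 arf8 at each stage, with ratios of 1.08, 2.77 and 2.90.

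Other genes were far apart in stem and close in flowers. AT3G28270, at -2.84 in stem, had flower ratios of -0.52, -0.09 and -0.36, and ARPN, at -2.75 in stem, had -0.21, -0.27 and -0.46. Both had flower signals of 710.5 or more in both genotypes at all 3 stages, so the flower ratios do not rest on dim arrays. THI2.2, at 3.01 in stem, had 0.29, 1.11 and 0.29. AT1G33790, at 3.38 in stem, had 0.17, 0.73 and 0.84, with a flower signal of at most 187 in either genotype. AT5G49770 was at 5.7 or less on the flower arrays of both genotypes, against 253 in arf6 arf8 stem. Over the 14 lowest genes 12, 13 and 13 had the sign of the stem ratio at the 3 stages, and over the 14 highest 12, 14 and 12 did.

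Gene lists by function were then counted in stem, read against 3.53% higher and 2.25% lower over all probe sets tested. The lists were chosen with earlier results of these data known, so their counts are descriptions. Of 27 lists, 10 had 3 or more named members at sufficient signal. The expansin and XTH list had 13 such members, of which 2 were higher and 3 were lower, and its median log2 ratio was -0.21 with 8 of 13 below 0. Besides EXLB1, the higher member was EXGT-A3, an XTH-type enzyme, at 431 in Columbia, 725 in single-copy and 1298 in arf6 arf8 (1.49). Besides EXPA8 and XTH19, the lower member was EXLA2, an expansin-like gene, at 800.5, 729.9 and 309 (-1.24). Among the members not past the fold were EXPB3 at 5001 and 3533 in Columbia and arf6 arf8, XTH32 at 4429.9 and 4746, and XTH16 at 2375 and 1655. The list thus held large differences in both directions and members with ratios near 1.

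Sugar transporters of the SWEET family also went both ways. Of 8 members, SWEET10 and SWEET11 were higher and SWEET8 was lower, and the list's median was -0.30. SWEET11, which exports sucrose from leaf cells before phloem loading, read 408 in Columbia, 669 in single-copy and 2008 in arf6 arf8 stem (log2 ratio 2.17). SWEET8, which is needed for pollen wall formation and was among the set-aside transcripts, read 257, 81.1 and 48.1 (-1.65).

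Of the auxin-response list 2 of 6 members were higher and none was lower, with a median of 0.87. HAT2, an auxin-induced homeodomain-leucine zipper gene, read 428 in Columbia, 828 in single-copy and 1489 in arf6 arf8 (log2 ratio 1.69). GH3.3, one of the enzymes that join auxin to amino acids, was set aside as bud-abundant and read 133, 43.8 and 333 (1.07). WES1, another such enzyme, was just under the fold at 947, 521 and 1929 (0.99), and GH3.17 had a ratio of -0.77, GH3.9 of 0.75 and IAA18, an Aux/IAA repressor, of 0.33. In GH3.3 and WES1 single-copy stem was the lowest of the 3 stems and arf6 arf8 the highest, so the single-copy check did not lie between them. Under quantile normalization 1 of the 6 was past the fold.

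Of the cold and dehydration list 3 of 6 members were lower and none was higher, with a median of -1.31. COR15B, which encodes a protective protein of the chloroplast stroma, read 1481 in Columbia, 1228 in single-copy and 323 in arf6 arf8 (log2 ratio -2.04). COR15A, its close homologue, read 808, 499.5 and 153 (-2.08) and was set aside as bud-abundant, and LTI30, a dehydrin, read 524, 285 and 89.2 (-2.04). In the 3 genes arf6 arf8 was well under both other arrays. COR47, another dehydrin, had a ratio of -0.58, and RD2 and HIS1-3 had 0.18 and 0.43. In flowers COR15B was below 0 at each stage, with ratios of -0.44, -1.33 and -0.84. COR15A had ratios of -0.02, 0.24 and 0.97 there, and LTI30 of -0.38, 0.53 and -0.64.

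Genes encoded in the plastid genome were slightly lower as a group. Of 62 with sufficient signal 4 were past the fold, all lower, 58 (93.5%) were below 0 and the median was -0.57. Over all probe sets tested 45.7% were below 0. The 4 were psbN (-1.51), the ribosomal genes rps16 (-1.26) and rps18 (-1.12), and rpoC2 of the plastid RNA polymerase (-1.04). Of these psbN only just reached the signal limit, at 200.3 in Columbia stem and 37.7 in arf6 arf8 stem. The median of single-copy over Columbia was -0.28 over the same 62. In flowers, the arf6 arf8 medians over the list were 0.12, 0.03 and 0.34, beside 0.01, 0.09 and 0.15 over all kept probe sets. At stages 11-12 the list was thus not above that background. The 8 nuclear photosynthesis genes had none past the fold, 8 below 0 and a median of -0.32, but under quantile normalization 5 of 8 were below 0 with a median of -0.03, so their direction depended on the scaling. The plastid list kept 54 of 62 (87.1%) below 0 with a median of -0.47 under that scaling, where 51.2% of all probe sets tested were below 0.

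The remaining lists gave few counts past the fold. The 7 cell division genes had none past the fold and a median of -0.28. The defence list, drawn by name pattern and including the thiamine gene THIC by that pattern, had 1 of 8 higher (THI2.2), 1 lower, LCR66, among the set-aside transcripts, and a median of -0.48. Of 4 genes of the flavonoid list, which holds UGT80B1 by name pattern alone, UF3GT, a flavonoid glycosyltransferase, was lower at 203 in Columbia, 81.6 in single-copy and 14.9 in arf6 arf8 (-1.96). Of 3 pectin genes PMEPCRF, a pectin methylesterase, was higher at 224, 496 and 1209 (2.20). In lists with fewer members, PRXR1, a class III peroxidase, read 4908, 8184 and 12146 (1.30), JAL23, a jacalin-type lectin, 1557, 2157 and 3701 (1.22), and STZ, a stress-induced zinc finger gene, 217, 243 and 553 (1.17). GID1A, a gibberellin receptor, had a ratio of 0.78.

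**Figure D4:**
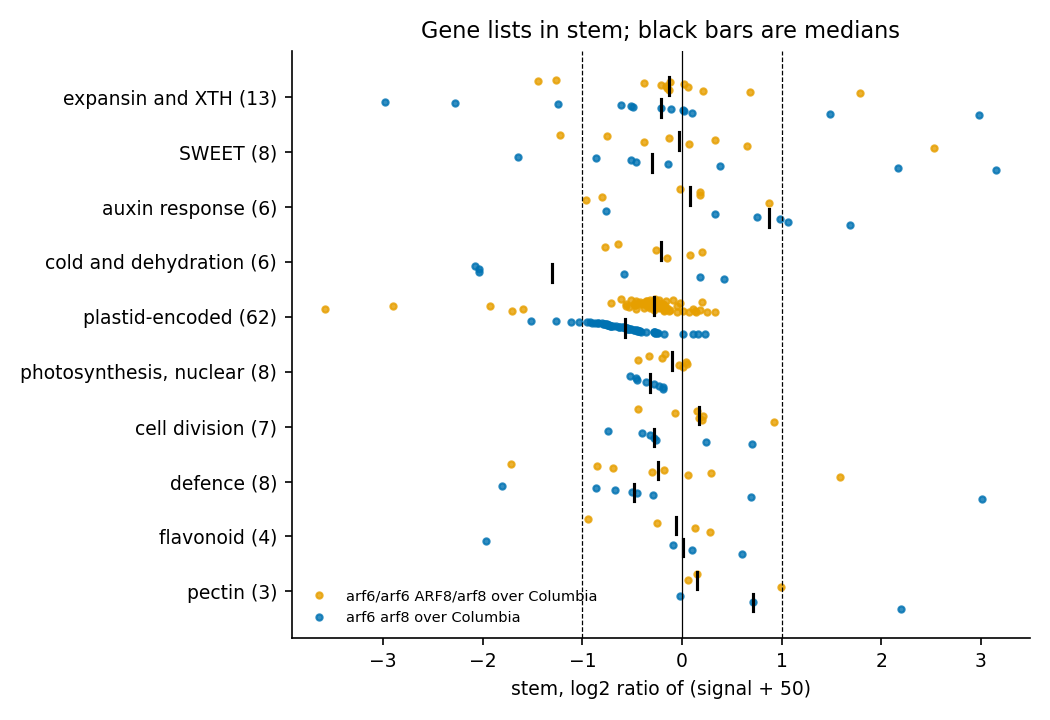
Log2 ratios of (signal + 50) in stem (x axis) for the named members of 10 gene lists at sufficient signal, over Columbia, for single-copy plants (orange) and arf6 arf8 (blue), with black bars at the medians and dashed lines at 2-fold. The number after each list's name counts its members. The expansin and SWEET lists spread to both sides, and 58 of the 62 blue plastid points lie below 0.

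Name families that were chosen after the stem values were seen showed further groups, and are given as descriptions. Over all probe sets tested 2.25% were lower and 3.53% higher, and the choice of families favours counts above these shares. Of 5 glycosyl hydrolase family 9 genes with signal, the family of plant endoglucanases, 3 were lower and none higher. GH9A3 and GH9B7 had log2 ratios of 0.59 and 0.03. GH9B13 read 6272 in Columbia, 4008 in single-copy and 2122 in arf6 arf8 (log2 ratio -1.54), GH9C2 5477, 3558 and 2414 (-1.17), and GH9B8 1426, 1345.5 and 681 (-1.01). The 3 had flower ratios between -1.58 and -2.86 at stages 11-12 and 13-14 and of -0.53 (GH9C2) or closer to 0 at stages 1-10. Both stomatal genes with signal were lower: FMA, the guard cell regulator FAMA, read 425, 207 and 102 (-1.64), and STOMAGEN, a peptide that promotes stomatal formation, read 891, 731 and 409.8 (-1.03). Their flower ratios stayed between -0.41 and 0.09.

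Other families chosen in the same way had higher members, to be read against 3.53% higher over all probe sets tested. Of 15 serine carboxypeptidase-like genes 3 were higher and none lower, led by scpl31 at 647 in Columbia, 1588 in single-copy and 2684 in arf6 arf8 (log2 ratio 1.97). Of 11 beta-glucosidase genes 3 were higher and 1 was lower, the set-aside ATA27, and 7 of the 11 were below 0 with a median of -0.24. BGLU45 and BGLU46, which act on glucosides of lignin precursors, read 219, 314 and 1070.0 (2.06) and 73.9, 155 and 205 (1.04). Of 5 tau-class glutathione transferases 2 were higher, with GSTU20 at 2208, 4219 and 6827 (1.61). Of 6 cytochrome P450 genes, all of the CYP71B group, 2 were higher and none lower, with a median of 0.72: CYP71B22 at 400.1, 917 and 1719 (1.97) and CYP71B26 at 109, 183 and 399 (1.502).

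A few more single genes were also chosen after their values were seen. ARL, an ARGOS-like gene that promotes organ growth by cell expansion, read 618 in Columbia, 1301 in single-copy and 2628 in arf6 arf8 (log2 ratio 2.003), and its flower ratios were -0.40, 0.62 and -0.30. SHN3, a transcription factor of the wax and cutin pathway, read 589, 960.4 and 1424 (1.21). AGO7, an Argonaute protein of the trans-acting small RNA pathway that targets other auxin response factors, read 168, 204 and 415 (1.10), with flower ratios of 0.85, 1.70 and 0.90. ATSBT5.2, a subtilase, read 552, 1283 and 2842 (2.26). In each of these 4 the single-copy stem lay between the other stems, as in 92.2% of the higher probe sets kept, which the choice of members largely fixes.

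A test was possible only by borrowing the spread from the flowers. The stem arrays added nothing to that spread and were assumed to vary likewise, which 1 array per group cannot check. limma was fitted to log2(signal + 50) on the 12 arrays with the mutant effects shared by the 3 flower stages and separate effects in stem, so that the spread was how those effects differed among the flower stages, on 4 residual degrees of freedom. Of 17647 probe sets none passed an adjusted p of 0.05 for arf6 arf8 minus Columbia in stem, and 1048 (5.94%) had an unadjusted p under 0.05. The smallest limma adjusted p was 0.0609, shared by SWEET10 (log2 difference 3.15, SE 0.320), AT3G02910 (3.18, SE 0.332) and AT1G33790 (3.38, SE 0.360) among the named genes. EXLB1 had a limma adjusted p of 0.117 with an SE of 0.422, and AT1G72110 and AT3G28270 had 0.107. EXPA8, which varied strongly among flower stages, had an SE of 0.912 and a limma adjusted p of 0.58. The difference between the stem and flower effects, a contrast added after the data were seen, passed at none of the 17647 by limma, with 582 (3.3%) at an unadjusted p under 0.05, so a gene that was far apart in stem and close in flowers is described as such and not called different between the tissues.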

How the data were processed

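Biotin-labelled RNA from 12 samples was hybridised to 1-colour probe-set arrays, 1 array per genotype and tissue. The values are signal intensities on a linear scale, made by the authors with MAS5 per the submitters' processing notes, which name no version. The deposited intensity values have a mean near 500 on each array after 2% of probe sets are trimmed from each end, so they were used with no further scaling. MAS5 gives 1 value per probe set, and its dim values are noisy, hence the added 50 and the minimum of 200. About 7 µg of total RNA was labelled per sample, per the labels' protocols. Precision is limited by having 1 array in each group. No deposited column was left unused (0).

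From these values, log2 ratios, counts and lists were computed with Python 3.11.15, numpy 2.4.6 and pandas 2.3.3, and the pooled-spread test with limma 3.58.1 in R 4.3.3 (trend = TRUE, probe sets with a signal of 100 or more on at least 1 array, Benjamini-Hochberg, two-sided), which was tested on simulated data. Of 22810 probe sets 64 controls were left out. A platform annotation table pairs 13513 probe sets with 1 gene, 503 with several and does not list 8730; 13436 of the single ones matched a TAIR10.1 locus, which supplied the names. Named genes are the 14 highest and 14 lowest kept ratios, the 6 highest and 6 lowest set aside, and up to 4 list members past the fold; other genes and name families were chosen after their values were seen, as the text says of the families and single genes concerned. Members and lists were chosen with earlier results of these data known. A count of promoter motifs was planned and not made, since no sequences were used here. Alternatives changed the pseudocount, the minimum signal, the fold, the scaling, the rule for setting aside and the settings of the test.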

Additional observations from a re-analysis of the deposited data

How the results depend on the processing

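No paired analysis was possible because each genotype and tissue has 1 array, and for the same reason no replicate could be left out. The planned promoter motif count was not run. The counts depended on the thresholds by construction, since each stricter setting keeps fewer probe sets. With a pseudocount of 200, 192 probe sets were higher and 131 lower, 43 of the set-aside transcripts were past the fold, 68 were past it in single-copy against Columbia, and 45 and 42 were beyond both other stems. With a minimum signal of 500 these were 268, 158, 22 and 87, with 76 higher beyond both, and with a minimum of 100 the set-aside count was 109 and the single-copy count 270. At 1.5-fold there were 1401 higher, 910 lower, 896 in single-copy against Columbia, and 499 and 293 beyond both, and at 3-fold 109, 84, 48, 24 and 24. Setting aside at over 2 times, at over 10 times, or at over 5 times in any flower stage gave 182, 40 and 121 set-aside transcripts past the fold. Quantile normalization gave 379 higher and 261 lower, of which 375 and 227 were shared with the counts above, and median scaling 367 and 272. The higher share of calls was 63.3%, and 59.2% and 57.4% under these scalings. The 40 genes named by rank kept their sign and stayed past the fold under both, and 0 of 160 of their recomputed values reversed. In the limma test, 5 probe sets passed with a pseudocount of 200, 10 with no filter on low signals and 5 without the trend, and 0 in the other alternatives; the cause was not tested. Signals near the bottom of the scale carry no reliable order, so ratios of genes at under 50 on 1 array state a size only on the (signal + 50) scale.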

Other observations

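A run of 5 neighbouring genes of the plastid genome stood apart on the single-copy stem array. psbK read 1475 in Columbia stem, 456 in single-copy stem and 1068 in arf6 arf8 stem, psbI 1679, 479 and 1384, atpA 8327, 649.8 and 6186, atpF 2966, 355 and 1977, and atpH 2532, 629.8 and 1711. Their log2 ratios of single-copy over Columbia were between -3.58 and -1.59, where the next lowest of the 62 plastid genes was at -0.71. rps16 and matK, which lie on one side of the 5 in the annotation, read 646 against 791 and 7475 against 6798 in single-copy and Columbia stem, and rps2 on the other side 3957 against 5477. In flowers of stages 13-14 the single-copy array was the brightest for the 5 instead, with psbK at 2857 against 209 in Columbia and atpA at 1555 against 98.2. In stem, the arf6 arf8 ratios of the 5 lay between -0.57 and -0.27, within the range of the other plastid genes.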
